A study of Solanum lycopersicum x Solanum pennellii and Solanum lycopersicum and Solanum pennellii with 31 samples.

Results

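The sRNA loci described here are those whose reads were found in both M82 seedlings and were nearly missing from the seedlings of 3 introgression lines. They were chosen by their counts: a locus had to hold at least 4 counts in each of the 2 M82 libraries and at most 2 counts over IL1-1, IL2-5 and IL8-3 together. Of 219578 sRNA loci in the table, 66499 held at least 4 counts in each M82 library, and 204 of these (0.307%) were lost in the lines. The lines are tomato (Solanum lycopersicum cv. M82) plants that each carry a segment of the genome of the wild relative S. pennellii in place of their own. The reference was M82 itself. There was 1 library each of IL1-1, IL2-5 and IL8-3 and there were 2 libraries of M82, all from 2-week-old seedlings, of which the methods name the aerial part for related libraries. Each library came from 1 plant, so a line had no replicate, and the spread given for the lines is between lines with different segments. The totals were between 4680913 and 5688499 counts in the lines and were 4860695 and 2843012 in M82, so that M82 replicate 2 was the shallowest library. The study's methods state that these line libraries had carried wrong names in an earlier deposit and were relabelled for this one.

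Plant small RNAs that come from repeats and silenced regions are made mostly by RNA polymerase IV and an RNA-dependent RNA polymerase, are cut by a Dicer-like enzyme to 24 nucleotides, and guide DNA methylation to matching sequence. In paramutation, one allele of a locus changes the other in this way, and the change is inherited. At H06, the locus that the study describes most fully, the changed allele has small RNAs and methylation that the M82 allele lacks. The table gives no read length, so the counts cover every small RNA size that was counted. In whole seedlings, fewer cells that make a small RNA and less of it per cell cannot be told apart.

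No genome of the mapped build was used here, so the sequences of the loci are not given. Of the lost loci that overlap a region the study tested for inheritance of methylation, Cluster_116135 had the most counts in M82 and none in the lines, and the study's own primer pair for its region (Hypo3, on chromosome 6) is shown. Where the primers match was not checked. Both are in lower case, 5′ to 3′, with no part set apart.
Hypo3 fw: ttgatggcatccatttttcataca
Hypo3 rv: atacggttgcgtttcttgcttc

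Most of the 204 lost loci sat at the edge of the rule. In M82 their median count was 5 in each library, and the lower of the 2 M82 counts was exactly 4 at 132 loci (64.7%) and 6 or more at 44. At 45 loci both M82 counts were 4. Over the 3 lines, 33 loci had no count, 59 had 1 and 112 had 2. Just outside the rule there were 429 loci with a lower M82 count of 3 and at most 2 counts in the lines, and 160 loci with at least 4 counts in each M82 library and 3 counts in the lines. The loci just inside (2 counts in the lines) and just outside (3 counts in the lines) had nearly the same M82 counts, with medians of the M82 sum of 10 and 10.5.

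The counts that remained in the lines were spread over all of them. The 204 loci together held 81 counts in IL1-1, 87 in IL2-5 and 115 in IL8-3, against 2228 in M82 replicate 1 and 1461 in M82 replicate 2. In CPM (counts scaled to a library total of 1000000) this was 17.3 in IL1-1, 16.4 in IL2-5 and 20.2 in IL8-3, against 458 and 514 in M82, a gap that the rule itself sets. Of the 112 loci with 2 counts in the lines, 51 had both counts in 1 line and 61 had 1 count in each of 2 lines. The M82 counts were uneven across loci. The 5 highest loci held 1236 of the 3689 M82 counts (33.5%), 17 loci had an M82 sum from 20 to 100, and 182 loci had an M82 sum under 20.

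**Figure D1:**
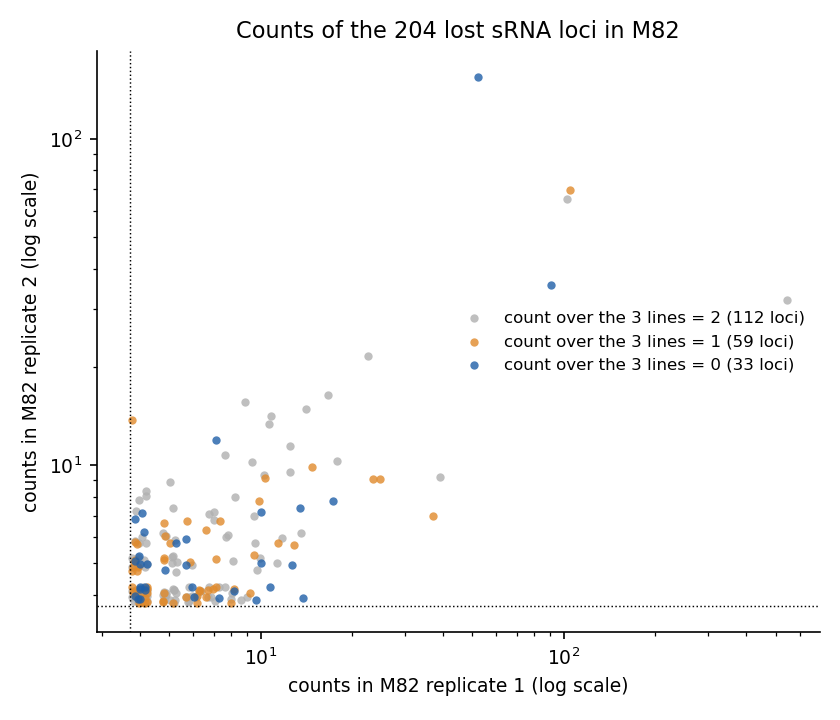
Counts of each lost locus in M82 replicate 1 (x axis, log scale) and M82 replicate 2 (y axis, log scale), with points moved slightly at random so that equal counts can be seen and coloured by the count over the 3 lines. Dotted lines mark the minimum of 4 counts; most loci lie close to it, and 5 loci have an M82 sum over 100.

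The 2 M82 libraries differed in depth, and the minimum of 4 counts was therefore 0.823 CPM in M82 replicate 1 and 1.41 CPM in replicate 2. The CPM was higher in replicate 2 at 164 lost loci and higher in replicate 1 at 40. The median log2 ratio of replicate 2 to replicate 1 was 0.77 over the lost loci, against -0.03 over the 66499 loci with at least 4 counts in each M82 library. At 51 loci the 2 M82 libraries were more than 2-fold apart in CPM, and at 3 loci more than 5-fold.

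The lost locus with the most counts was Cluster_110951, 45 bases on chromosome 6 (SL2.50, 39116303 to 39116347). It held 0 counts in IL1-1, 0 in IL2-5 and 2 in IL8-3, against 523 and 34 in M82. The M82 seedlings were about 9-fold apart in CPM, so the M82 level rested mostly on 1 plant, although both M82 counts lay above those of every line. The pooled level was 567-fold lower in the lines (95% exact interval 156 to 4690). This interval and those that follow cover counting error only, and they describe loci that were picked for their difference.

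Cluster_100523, 82 bases near one end of the chromosome 6 assembly (8696 to 8777), was the reverse between the M82 plants. It held 0, 0 and 0 counts in the lines (always IL1-1, then IL2-5, then IL8-3), against 53 and 162 in M82 (replicate 1, then 2). With a floor of 3 counts summed over the lines, or 0.191 CPM, the level was at least 146-fold lower in them. This locus and Cluster_110951 were 2 of the 3 lost loci with M82 levels more than 5-fold apart.

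The M82 plants were closer at the next loci. Cluster_63654, 65 bases on chromosome 3 (65530702 to 65530766), held 1, 0 and 0 counts in the lines, against 104 and 69 in M82, a level 352-fold lower in the lines (62.3 to 13981). Its level was 0.0712 ± 0.123 CPM over the lines (n = 3, SD) and 22.8 ± 2.03 CPM over the M82 plants (n = 2, SD). Cluster_40710, 51 bases on chromosome 2 (44990293 to 44990343), held 0, 1 and 1 counts in the lines, against 103 and 62 in M82, 168-fold lower (45.7 to 1397). Its level was 0.121 ± 0.105 CPM over the lines (n = 3, SD) and 21.5 ± 0.437 CPM over the M82 plants (n = 2, SD). Cluster_40710 lies inside the segment that IL2-5 carries from S. pennellii, so that in IL2-5 a loss of small RNAs and reads that no longer match the tomato genome cannot be told apart. The other lines carry M82 sequence there and held 0 and 1 counts.

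Cluster_116135, 110 bases on chromosome 6 (47125388 to 47125497), held 0, 0 and 0 counts in the lines, against 91 and 35 in M82, at least 85.4-fold lower by the same floor. It is the locus that overlaps Hypo3, whose primers are given above. No count was found in any of the 3 lines, as at Cluster_100523, and these were the only loci among the 5 highest with none.

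After these 5 loci the counts dropped. Cluster_8743 (chromosome 1, 11147435 to 11147588) held 0, 1 and 1 counts in the lines, against 22 and 21 in M82, and Cluster_199290 (chromosome 11, 50504476 to 50504612) held 0, 0 and 2, against 17 and 17. At these loci the M82 plants were 1.63-fold and 1.71-fold apart in CPM. Cluster_203379 (chromosome 12, 472401 to 472551) held 2, 0 and 0 counts in the lines, against 39 and 9 in M82. Cluster_116144 (chromosome 6, 47132163 to 47132272) held 0, 1 and 0, against 25 and 9, and Cluster_63655 (chromosome 3, 65530839 to 65531274) held 0, 1 and 0, against 38 and 7. The pooled levels of these 5 loci were between 34.6-fold (Cluster_199290, 8.87 to 297) and 91.5-fold (Cluster_63655, 15.6 to 3695) lower in the lines. In all, 13 lost loci had at least 10 counts in each M82 library, and 6 had at least 20.

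**Figure D2:**
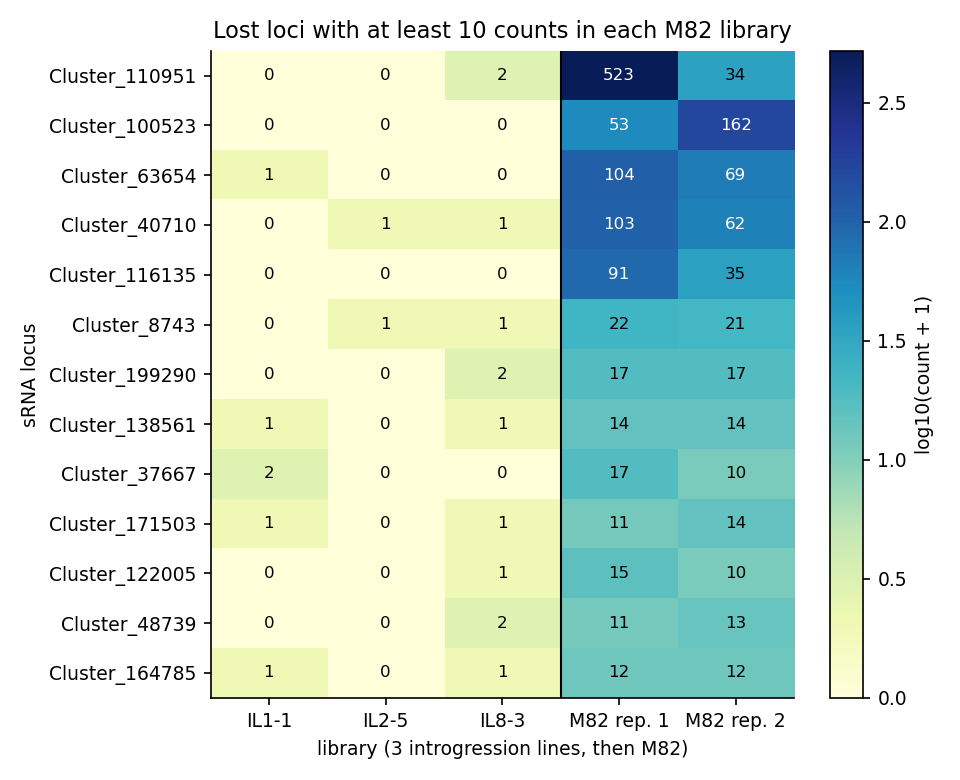
Counts of the 13 lost loci with at least 10 counts in each M82 library (rows, ordered by M82 sum) in IL1-1, IL2-5, IL8-3 and the 2 M82 libraries (columns); numbers are counts, colour is log10(count + 1). No line holds more than 2 counts, and the M82 counts run from 10 to 523.

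The rule was also applied to the other 9 ways of taking 2 of the 5 libraries as the pair that holds the counts, to set the number of lost loci beside what it finds for pairs that no genotype defines. With the counts as deposited, the M82 pair gave 204 loci and the other pairs gave between 52 and 714, and 6 of the 9 gave more than the M82 pair. The lowest 3 numbers (52 to 76) were those of the pairs that combine M82 replicate 2 with a line, and the 6 pairs without that library gave 256 to 714. The highest was that of IL2-5 with IL8-3, the deepest libraries. With depth left as it is, the M82 pair was thus in the lower part of the 10 numbers.

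Depth moved this order. When the counts of each library were scaled to the total of the shallowest, the M82 pair gave 132 loci and the other 9 pairs gave 6 to 37. Scaling asks for at least 7 deposited counts in M82 replicate 1 and 7 to 9 in the lines, but for 4 in M82 replicate 2, whose counts it leaves as they are. It also loosens the maximum: more than 2 deposited counts over the lines can pass as at most 2, while counts of M82 replicate 2 stay whole. Of the 132 loci, 72 were among the 204. A second way, chosen after the data were seen, was the number of loci expected when each library is thinned at random to the shallowest total. This was 415 for the M82 pair and 104 to 241 for the other pairs. Both ways put the M82 pair highest of the 10, by 3.57-fold over the next pair when scaled and by 1.73-fold when thinned. With at least 10 deposited counts in each library of the pair, which was also chosen after the data were seen, the M82 pair and IL2-5 with IL8-3 both gave 13 loci, and the other pairs gave 0 to 12. With at least 20 they gave 6 and 7, and the others 0 to 2. These are counts for a description, and no test was made of them.

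**Figure D3:**
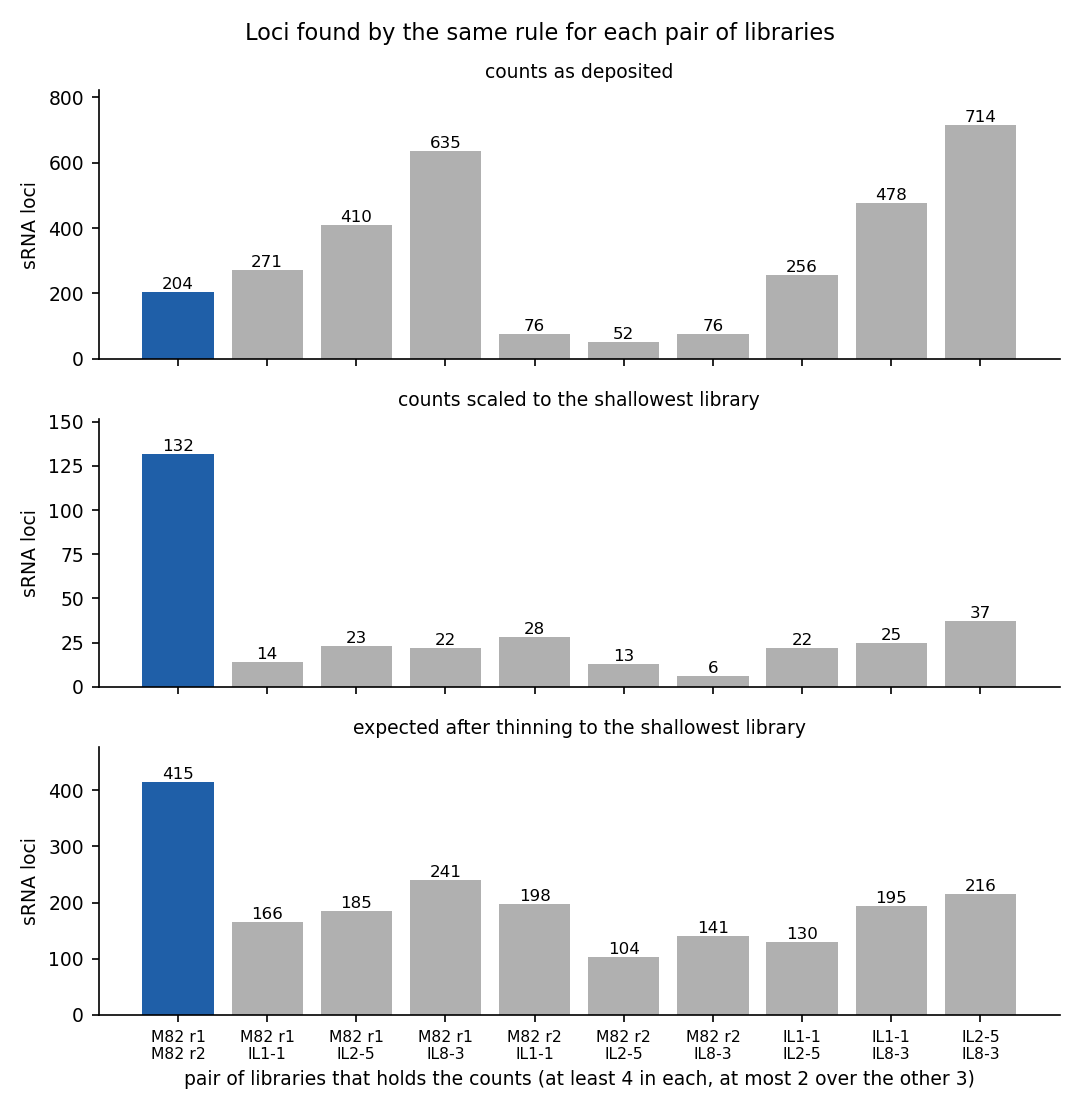
Number of sRNA loci (y axes) with at least 4 counts in each library of a pair and at most 2 over the other 3 libraries, for the 10 pairs of libraries (x axis, M82 pair in blue and first), with the counts as deposited, scaled to the shallowest library, and expected after thinning. The M82 pair has 204 loci of 52 to 714 as deposited, and is highest in the other panels (132 and 415).

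Lost loci were short. Their median length was 77 bases (24 to 490), against 210 bases for all loci with at least 4 counts in each M82 library and 126 for all loci of the table. Of the lost loci, 24.5% were 40 bases or shorter and 8.33% were longer than 200, against 3.37% and 52.6% of the loci with at least 4 counts in each M82 library. The longest was Cluster_211126 on chromosome 12 (37262344 to 37262833, 490 bases), with 1, 0 and 1 counts in the lines, against 6 and 4 in M82. The shortest was Cluster_42140 on chromosome 2 (47555683 to 47555706, 24 bases), with 2, 0 and 0, against 6 and 4.

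Loci with few counts are shorter in this table as a whole, so the lengths were also set beside loci of similar M82 counts. At an M82 sum of 8 to 9 the median was 82.5 bases over 80 lost loci, against 144 over the other loci with at least 4 counts in each M82 library. At sums of 10 to 14 it was 72 against 160, at 15 to 29 it was 67 against 190, and at 30 or more it was 110 over 11 lost loci, against 249. The lost loci had the lower median in all 4 classes. The loci that the same rule gave for the other 9 pairs of libraries were also short, with medians of 49 to 109.5 bases, and 3 of the 9 had a median below that of the M82 pair.

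**Figure D4:**
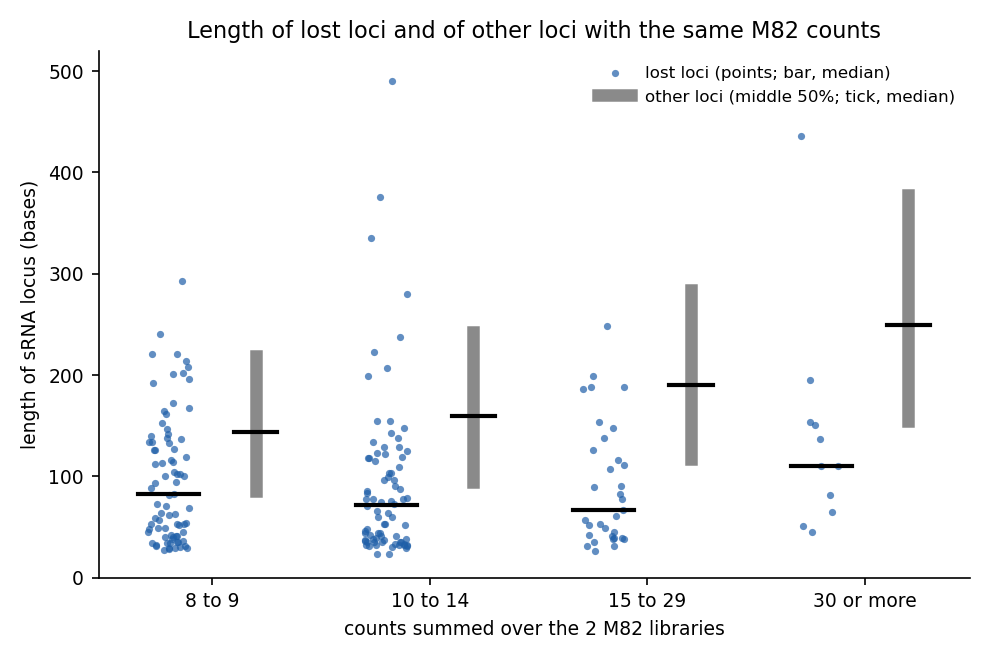
Length in bases (y axis) of the lost loci (points, with a bar at the median) and of the other loci with at least 4 counts in each M82 library (grey bar, middle 50%, with a tick at the median), by counts summed over the M82 libraries (x axis). The medians of the lost loci lie between 67 and 110 bases, and those of the other loci between 144 and 249.

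Lost loci were found on all 12 chromosomes, with 10 (chromosomes 4 and 9) to 37 (chromosome 1) on each and 6 on the sequence that is not placed on a chromosome. As a share of the loci with at least 4 counts in each M82 library, they ran from 0.183% on chromosome 4 to 0.483% on chromosome 1, and the unplaced sequence had 0.598%. Of the 198 placed lost loci, 116 (58.6%) had their midpoint in the outer 20% at either end of the chromosome, against 73.3% of the placed loci with at least 4 counts in each M82 library. At M82 sums of 8 to 9, 10 to 14 and 15 to 29 the share was 55.3%, 60.3% and 54.5% of the lost loci, against 65.6%, 68.3% and 72.3% of the other loci with such counts. At 30 or more it was 9 of 11 lost loci (81.8%), against 76.1%. These classes, too, match the M82 counts only and not the counts in the lines. Over the other 9 pairs of libraries the share ran from 45.9% to 76.9%, a range that holds the value of the M82 pair.

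The segments from S. pennellii held 40 of the 204 lost loci (19.6%). Over the loci that the same rule gave for the other 9 pairs of libraries this share was 6.58% to 22.2%, and in 4 of the 9 it was at or above that of the M82 pair. In these segments 1 of the 3 lines has wild rather than M82 sequence, and its reads are mapped to the tomato genome. The IL1-1 segment, on chromosome 1, held 33 lost loci, which is 0.647% of its 5102 loci with at least 4 counts in each M82 library, against 0.282% of the 58141 such loci outside the segments. The 33 loci held 5 counts in IL1-1, 19 in IL2-5 and 29 in IL8-3, against 214 and 194 in M82. The remaining counts were thus lowest in the line that carries the segment, and the part that unmatched reads have in this was not tested. The IL2-5 segment held 4 lost loci (0.193%) and the IL8-3 segment 3 (0.254%). With the most counts in them were Cluster_8743 (IL1-1), Cluster_40710 (IL2-5) and Cluster_151097 (IL8-3, chromosome 8, 62541520 to 62541565), which held 0, 0 and 0 counts in the lines, against 6 and 4 in M82. Without the segments 164 lost loci remained.

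Few lost loci lay next to each other. The median distance between neighbouring lost loci was 1944 kb, and 10 of the 204 (4.90%) were within 10 kb of another, in 5 pairs. Over the other 9 pairs of libraries this share was 0% to 4.76%. Within 100 kb there were 30 loci in 14 groups of at most 3 (14.7%, and 0% to 27.2% over the other pairs of libraries). The pair with the most counts was Cluster_63654 and Cluster_63655 on chromosome 3, with 72 bases between them. The next was Cluster_116135 and Cluster_116144 on chromosome 6, 6665 bases apart, and 35323 bases beyond them was Cluster_116177, with 1, 1 and 0 counts in the lines, against 7 and 4 in M82. On chromosome 10, Cluster_176020 (0, 0 and 0 in the lines, against 14 and 4) and Cluster_176021 (0, 0 and 1, against 10 and 8) were 91 bases apart. The pairs on chromosomes 7 and 8, Cluster_120866 with Cluster_120873 and Cluster_142780 with Cluster_142781, were 9671 and 6200 bases apart and had at most 9 counts in any library. A group of 3 on chromosome 8 (Cluster_138543, Cluster_138551 and Cluster_138561) spanned 84.1 kb, and Cluster_138561 held 1, 0 and 1 counts in the lines, against 14 and 14 in M82.

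Most lost loci stood beside loci that were not lost. Another locus was within 1 kb of 153 of the 204 (75%), against 56668 of the 66499 loci (85.2%) with at least 4 counts in each M82 library. The neighbours of all 153 held at least 1 count in the lines. Most loci of the table do, since each line had counts at 189342 to 199775 of the 219578 loci, so nothing is read from this. At 10 lost loci the neighbours together had at most 2 counts in the lines. The neighbours were not used by the rule, so they were tested in the fit of the lines against M82 over all loci (edgeR's quasi-likelihood test). There were 304 of them, and 77 passed the filter on low counts. A locus can pass this filter through the M82 libraries alone or the lines alone, and then leans to that side from the start. Cluster_63231 (2, 0 and 10 counts in the lines, against 38 and 29 in M82) and Cluster_90461 (11, 11 and 21, against 0 and 0) are such neighbours. The shares that follow are therefore a description only. Among these 77, 8 (10.4%) were lower in the lines at an unadjusted p under 0.05, where 5.48% of all 62065 tested loci were, and 6 (7.79%) were higher, where 4.88% were. At an adjusted p under 0.05 the quasi-likelihood test called 0 neighbours, and the likelihood ratio test called 2 lower and 3 higher. DESeq2, with or without shrinkage, called 0 lower and 1 higher (Cluster_63657). Over all 62065 loci the likelihood ratio test called 315 lower and 291 higher. DESeq2 called 73 lower and 155 (with shrinkage) or 163 (without) higher of 219559 loci, of which 200103 were given no adjusted p. Without IL2-5 the 8 became 4, and without IL8-3 they became 5. The median log2 fold change of the neighbours was -0.15, against -0.02 over all loci tested, and in 21 of the 77 (27.3%) all 3 lines lay below both M82 libraries, where 19.0% of all tested loci did.

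Around the chromosome 3 pair, a stretch picked for its lost loci, some loci had fewer counts in the lines and others had more. On one side, 141 bases from Cluster_63654, Cluster_63653 held 0, 0 and 0 counts in the lines, against 7 and 3 in M82, so that it missed the rule by 1 count in M82 replicate 2. On the other side, 126 bases from Cluster_63655, Cluster_63656 held 3, 1 and 1, against 7 and 6. Cluster_63657, 302 bases from Cluster_63655, held 61, 81 and 73 counts in the lines, against 8 and 5 in M82, with all 3 lines above both M82 libraries. Its log2 fold change was 3.12 (SE 0.42), and edgeR's quasi-likelihood test gave an unadjusted p of 8.0e-05 and an adjusted p of 0.184. The adjusted p of Cluster_63657 was between 2.4e-05 and 0.684 over 11 other ways of fitting, and was under 0.05 in 4 of them. Cluster_63652, 2114 bases from Cluster_63654, held 114, 156 and 164, against 142 and 23. Cluster_63658, 1260 bases from Cluster_63655 on the side of Cluster_63657, held 27, 16 and 17, against 13 and 2. From Cluster_63652 to Cluster_63658, then, a locus with overlapping counts was followed by loci low in the lines and then by loci with more counts in the lines. At Cluster_63659, the locus after Cluster_63658, the counts overlapped again (1, 6 and 9 in the lines, against 4 and 2). Whether the small RNAs changed place was not tested.

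The chromosome 6 pair was also flanked by loci with counts in every library. Cluster_116134, 353 bases from Cluster_116135, held 625, 543 and 809 counts in the lines, against 219 and 300 in M82, which is 126 ± 20.9 CPM over the lines (n = 3, SD) and 75.3 ± 42.8 CPM over the M82 plants (n = 2, SD). In CPM the shallower M82 library lay among the lines, and edgeR's quasi-likelihood test gave an adjusted p of 0.59. Cluster_116143, 91 bases from Cluster_116144, held 29, 31 and 38 in the lines, against 26 and 3. Cluster_116145, 767 bases away on the other side, held 110, 128 and 160, against 45 and 31, a log2 fold change of 1.42 (SE 0.35) with an adjusted p of 0.424 by edgeR. Cluster_116142, 638 bases from Cluster_116144, held 16, 17 and 21, against 20 and 12. Small RNAs were thus present within 1 kb on both sides of Cluster_116144 in the lines while the locus itself had 1 count.

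**Figure D5:**
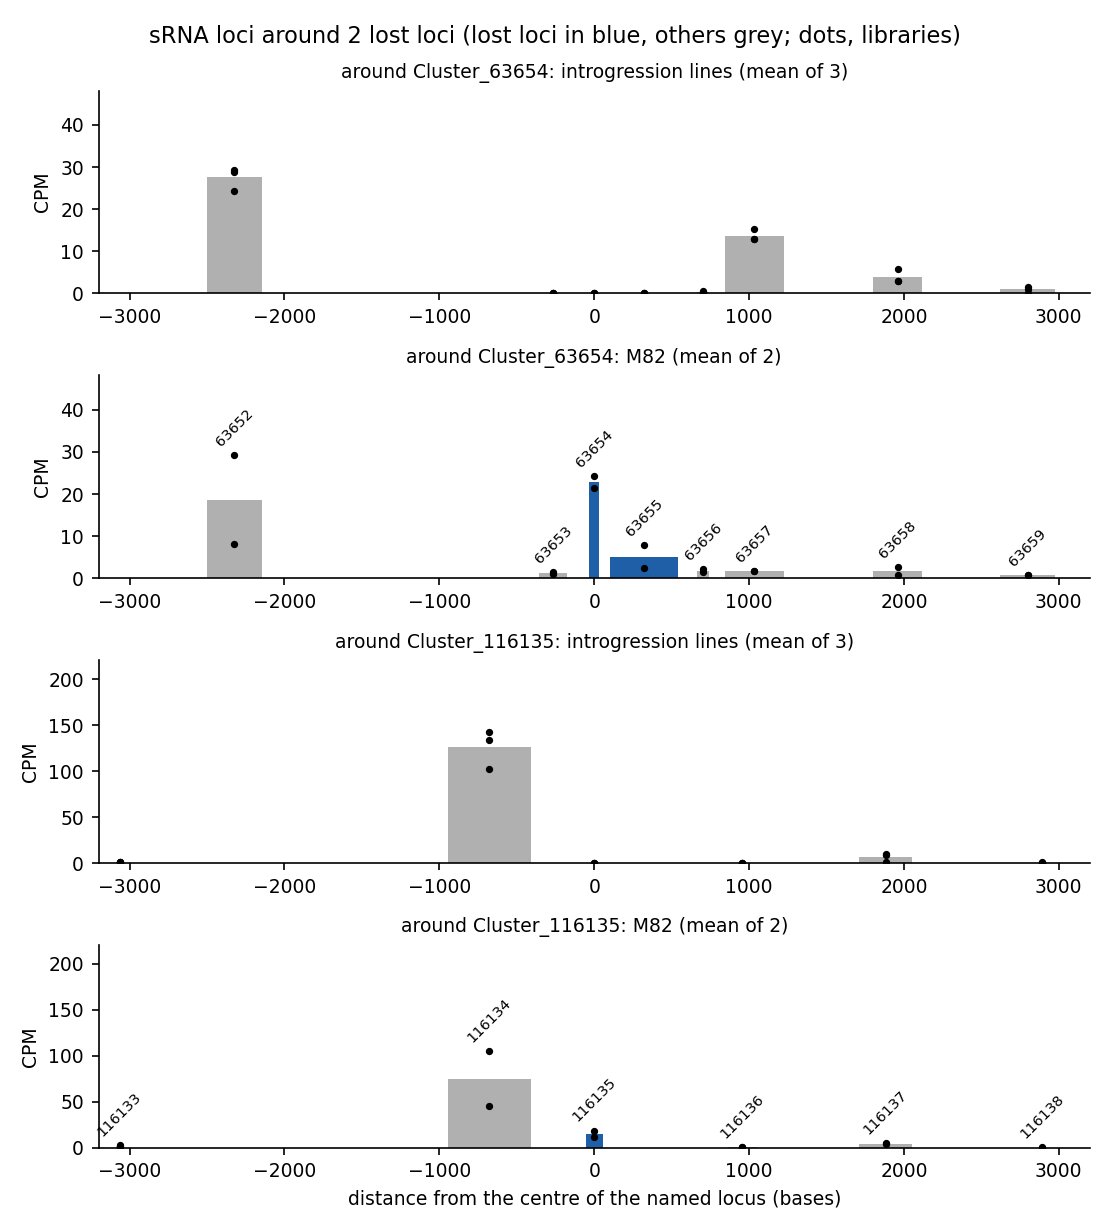
Mean CPM (bars as wide as the locus; dots, single libraries) of sRNA loci by distance in bases from the centre of Cluster_63654 and of Cluster_116135, in the 3 lines (first of each pair of panels) and in M82 (second). Lost loci are blue and have no visible bar in the lines, while grey loci on either side do: Cluster_63657 averages 13.7 CPM in the lines and 1.70 in M82.

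Beside the other lost loci with high counts, the neighbours differed in how far they followed. Cluster_199289, 179 bases from Cluster_199290, held 0, 0 and 42 counts in the lines, against 41 and 58 in M82. The same line, IL8-3, held both of the counts left at Cluster_199290. Cluster_8742, 834 bases from Cluster_8743 in the IL1-1 segment, held 0, 11 and 8 in the lines, against 6 and 21. Cluster_110950, 820 bases from Cluster_110951, held 114, 138 and 88, against 128 and 25, and Cluster_40709, 642 bases from Cluster_40710, held 4, 1 and 12, against 6 and 2. Each of these 4 neighbours held more counts over the 3 lines than the lost locus beside it. The rule allows a lost locus at most 2 counts there, and neighbours were named here only above a minimum count in some library. That outcome was therefore nearly set by the 2 choices, and nothing is read from it.

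The strongest low neighbour by log2 fold change was Cluster_63231 on chromosome 3, which was picked out after its values were seen. It held 2, 0 and 10 counts in the lines, against 38 and 29 in M82 (log2 fold change -3.46, SE 0.80, adjusted p of 0.424 by edgeR), and lay 361 bases from the lost locus Cluster_63230 (0, 1 and 0, against 4 and 5). The neighbour with the highest log2 fold change was Cluster_90461 on chromosome 5, picked out in the same way. It held 11, 11 and 21 counts in the lines, against 0 and 0 in M82, 128 bases from the lost locus Cluster_90460 (0, 0 and 1, against 6 and 5).

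The study also called regions of different DNA methylation between the same lines and M82, from bisulfite sequencing. That DNA came from leaves of 2-week-old seedlings, whereas the small RNA counts came from seedling libraries of an earlier study. Tissue and plants therefore differed. Used here were the positions of 10 regions hypomethylated and 25 hypermethylated in the lines in all 3 sequence contexts, and of 17 regions tested for inheritance (Hyper1 to Hyper9 and Hypo1 to Hypo8), 52 entries that can overlap. Of the 204 lost loci, 5 (2.45%) were within 1 kb of such a region and 3 of them overlapped one, against 30 (0.0451%) and 11 of the 66499 loci with at least 4 counts in each M82 library, which include the lost ones. None of the loci that the same rule gave for any of the other 9 pairs of libraries was within 1 kb. The regions were called for a difference between the lines and M82, a contrast that only the M82 pair follows. At a share of 0.0451%, lists of 52 to 714 loci would also hold few or none, so nothing is read from this. The regions tested for inheritance are not independent of these counts, since the study marked some of them, Hypo3 among them, as differing in small RNAs. No test was made of this number.

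Cluster_63655 lay whole inside a region of 500 bases that was hypomethylated in the lines in all contexts, and Cluster_63654 lay 34 bases from the nearest such region. Cluster_116135 had 97 of its 110 bases in Hypo3, which was hypomethylated and which the study places at the promoter of a gene of the Yippee family, whose products are thought to bind zinc. Cluster_116144 was 6462 bases from Hypo3. The 3 lost loci within 1 kb of a hypomethylated region were thus among the 10 highest in M82. The 2 lost loci near hypermethylated regions were at the edge of the rule. Cluster_96377 (chromosome 5, 59748213 to 59748272) lay 112 bases from one that was hypermethylated in all contexts and held 0, 0 and 1 counts in the lines, against 8 and 4 in M82. Cluster_164355 (chromosome 9, 61960240 to 61960317) lay whole inside Hyper3 and held 0, 0 and 0, against 8 and 4. The study lists Hyper3 as a region without differential small RNAs.

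In the fit over all loci, 29 of the 204 lost loci passed the filter on low counts. Only M82 could carry them past it, so they had to differ. The quasi-likelihood test called 2 of them lower in the lines at an adjusted p under 0.05, Cluster_63654 (log2 fold change -7.89, SE 0.68) and Cluster_40710 (-7.04, SE 0.57), where it called 0.00322% of all tested loci, which are these 2. The rule used the same contrast, so nothing is read from this count. With any 1 of the 5 libraries left out, the test called 0 loci lower.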

How the data were processed

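Per the labels and methods, the authors mapped and clustered the seedling small RNA libraries on tomato genome SL2.50 (cultivar Heinz) using ShortStack 3.3.3 (default parameters) and deposited raw counts of reads per locus, with no normalization. Tools named in the submitters' notes are Trim Galore, Bowtie 1.1.1 and DESeq2 1.8.1. How reads with several matches were shared between near-identical copies is not given in the sources used here, so counts of repeated loci are uncertain.

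Lost loci were taken from the counts. The members and lists were chosen with earlier results of these data known. CPM here is the count scaled to a library total of 1000000. Distances are the bases between the edges of 2 loci, and groups join lost loci at most 10 kb apart. Intervals are exact conditional 95% intervals (scipy 1.17.1), and where the lines had no count, 3 counts over all of them stood in. In R 4.3.3, edgeR 4.0.16 was run on the whole table with filterByExpr, which left 62065 loci, TMM, and the quasi-likelihood test of lines against M82 with Benjamini-Hochberg adjustment. TMM factors were 0.897 to 1.13 and the common dispersion was 0.148. P-values measure the spread between single plants, which among the lines includes any difference between lines with different segments. The line libraries were pooled as 1 group. No 2 libraries held identical values (Spearman's rho 0.635 to 0.722). The fits were tried on simulated counts, and the rule on made-up loci with known answers. DESeq2 1.42.0, other scalings, filters, thresholds and left-out libraries were alternatives. Loci were named by a fixed rule: the 10 highest in M82, those within 1 kb of a methylated region, the largest group, called loci, the longest and shortest, the highest in each segment, and neighbours of the 10 highest with at least 10 counts in any library. Micro-Tom, S. pimpinellifolium and H06 counts, and the shortened table of methylated regions shared in single contexts, were not used here.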

Additional observations from a re-analysis of the deposited data

How the results depend on the processing

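No paired analysis was possible because the labels give the lines no replicate number. The number of lost loci, 204, followed the thresholds: it was 33 with no count in the lines, 92 with at most 1 and 878 with at most 5, 633 with at least 3 counts in each M82 library, 44 with at least 6, 13 with at least 10, and 132 with scaled counts. With 1 library left out it was 530 (without IL2-5) to 3691 (without M82 replicate 2). Leaving a library out only loosens the rule, so all 204 stayed and the number could not fall. Groups within 10 kb held 10 lost loci, against 4 at 1 kb, 30 at 100 kb and 0 among the 33 loci with no count in the lines. Near methylated regions there were 5, against 3 by overlap and 2 with no count in the lines. At 10 or more counts in each M82 library the median length was 111 bases and 84.6% lay in the outer 20%. With the outer 10% the share was 33.8%.

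The quasi-likelihood test called 2 loci lower, both lost. Without a filter it called 32 (12 lost), outside the segments 10 (3 lost), and with at least 10 counts in 3 libraries 0, a filter no lost locus passed (2804 loci were lower at an unadjusted p under 0.05). The likelihood ratio test called 315 (29 lost), and DESeq2 called 73 with and 73 without shrinkage (3 and 4 lost, of the 4 lost loci that it gave an adjusted p). With any 1 library left out the quasi-likelihood test called 0 loci lower, lost loci included, where 1808 to 4543 loci were lower at an unadjusted p under 0.05. The 8 low neighbours became 18 without a filter, 5 with at least 10 counts in 3 libraries, 2 of 18 within 200 bp, 17 of 343 within 5 kb, and 4 (without IL2-5) to 11 with 1 library left out. Of 2 neighbours the direction turned without M82 replicate 2: the log2 fold change of Cluster_110950 (0.47 with all libraries) was -0.0063 then and up to 1.36 with other libraries left out, and that of Cluster_8742 (-1.67) was 0.19 then and down to -2.56 otherwise. With no scaling factors the median log2 fold change of all loci was -0.14, against -0.02. The cause of these changes was not tested. Counts of 4 to 10 limit most lost loci, where a locus with 2 or 3 counts in the lines falls on either side.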
